A study of Mus musculus with 9 samples.

Results

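Interferon-stimulated genes (ISGs) are the genes that cells switch on after interferon binds its receptor. A list of 43 mouse ISGs was followed in RNA-seq libraries of sorted splenic B cells. Genes were taken by gene symbol, and all 43 were found among the 24346 genes of the tables. Averaged over the 9 libraries, 41 of them reached 1 FPKM and were tested, together with all other genes at that level, 10375 genes in total. FPKM counts sequenced fragments relative to the length of the transcript and to the depth of the library, so that it can be read as a level per length. Ifih1 and Ifi44 stayed under the limit and were only described.

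Type I interferons act through the receptor chains Ifnar1 and Ifnar2, the kinases Jak1 and Tyk2 and a complex that holds Stat2 and Irf9. This complex binds the interferon-stimulated response element (ISRE) in the promoters of ISGs. Interferon-gamma acts through Ifngr1 and Ifngr2 and through the gamma-activated site (GAS) of its target genes, and the targets of both pathways overlap in part. In resting lymphocytes, ISGs are kept at a basal level, and their products sense viral nucleic acid, block viral translation and replication, or tune the response itself.

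The mice were wild-type C57BL6 mice (C57BL/6), and all groups came from the spleen. Follicular (FO) B cells, sorted with a gate that included B220hiCD43-CD23+CD21lo, were taken from young mice at 8 weeks, FO B (Young), and from aged mice at 50 weeks, FO B (Aged). Age-associated B cells, a population that builds up with age and carries myeloid surface markers, were sorted with a gate that included B220hiCD43-CD23-CD21loCD11b+CD11c+ from mice at 50 weeks, ABCs (Aged). Each group had 3 libraries. ABCs of young mice were not among the samples, so that age and cell type were separated only within FO B cells and within aged mice. The study's figure legend gives 3 mice for each group. The labels number the replicates without stating whether the aged FO B cells and the ABCs came from the same mice. The p-values measure the spread between these libraries. No treatment or genetic change was applied.

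Low FPKM values move in steps of 1 read, and the step size put the libraries at about 7370000 to 8960000 reads each. These are the library sizes that the FPKM values imply, and they would differ from the mapped reads if the libraries were scaled. From the steps, whole reads could be recovered for 27 of the 43 ISGs, and they are used below to show how few reads lie behind low values. The summed level of 8 B cell markers was 8891 to 10812 FPKM over all 9 libraries. By the limma test given below, 1 of the 8 rose in ABCs (Aged) against FO B (Aged) and 2 fell, beside 18.7% and 16.7% of all genes. Cd22 rose, at 861 to 926 FPKM in ABCs and 403 to 437 FPKM in FO B libraries. Pax5 (18.8 to 21.4 against 26.6 to 34.0 FPKM) and Ebf1 (33.4 to 53.6 against 64.6 to 75.4 FPKM) fell. The 14 macrophage and monocyte markers summed to 279 to 326 FPKM in ABCs (Aged) and 22.6 to 62.5 FPKM in the FO B libraries. Most of the ABC sum came from Adgre1 (174 to 222 FPKM) and Ly6c2 (61.3 to 84.1 FPKM). The 12 dendritic cell markers summed to 20.9 to 26.1 FPKM in ABCs and 3.14 to 6.38 FPKM in FO B cells. The 10 T cell markers measured summed to 5.20 to 39.4 FPKM in ABCs, nearly all from Cd3g, against 0.981 to 2.98 FPKM. Cd3e was listed at 0 in 8 of 9 libraries. The 7 NK cell markers summed to 27.6 to 38.0 FPKM in ABCs, mostly from Prf1, against 0.789 to 3.69 FPKM, and Klre1 was listed at 0 in all 9. The 7 plasma cell markers summed to 976 to 1275 FPKM in ABCs against 440 to 471 FPKM, and the 7 marginal zone B cell markers to 1638 to 1824 FPKM against 989 to 1067 FPKM. The marginal zone markers were split. In ABCs (Aged) against FO B (Aged), 3 rose and 3 fell by the same test, with log2 fold changes of -5.04 to 3.73. Cr2 held 37 to 457 reads in the ABC libraries and 7428 to 8481 in the FO B libraries, whereas S1pr3 held 1562 to 4429 and 122 to 195. The 7 neutrophil markers measured summed to at most 8.71 FPKM, except for 24.6 FPKM in FO B (Aged) replicate 3. Cd22, Pax5, Ebf1, Adgre1, Ly6c2, Cd3g, Prf1, Cr2, S1pr3 and the markers at 0 were named after their values were seen. Among the macrophage and dendritic cell markers, Mertk, Clec9a, Batf3 and Clec10a were at 0 in all FO B (Aged) libraries and none was at 0 in all ABC libraries. These markers moved with the groups that the ISGs were compared between, and their part in the ISG results was not tested. In such bulk libraries, fewer cells that express a gene and less RNA of it per cell cannot be told apart.

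Many of the ISGs lie in clusters of related genes. On GENCODE M21 for GRCm38, the assembly that mm10 names, Ifit2 (34550694 to 34576419), Ifit3 (34583531 to 34588731) and Ifit1 (34640871 to 34650009) follow each other on the plus strand of chromosome 19. Oas2 (120730333 to 120749853), Oas3 (120753098 to 120777661) and Oas1a (120896256 to 120907521) lie on the minus strand of chromosome 5. Gbp7 (142530342 to 142550149), Gbp3 (142560026 to 142573209) and Gbp2 (142620602 to 142638008) are neighbors on the plus strand of chromosome 3. Rsad2 (26442746 to 26456452, minus strand) and Cmpk2 (26469204 to 26479837, plus strand) are divergent neighbors on chromosome 12. Mx1 (97447035 to 97462907, minus strand) and Mx2 (97535308 to 97560900, plus strand) lie on chromosome 16, and Mx2 is annotated as a polymorphic pseudogene. Of the 43 genes, 18 overlap another annotated gene, for instance Irf7 with Phrf1, Irf9 with Rnf31, Rtp4 with Masp1, and Parp9 with Dtx3l. The sources used here do not say whether counting used strand, so that reads of overlapping genes may not be separated. Values of close relatives, such as Ifit3 and Ifit3b, Oas1a and Oas1g, Slfn8 and Slfn9, Trim30a and Trim30d, and the Gbp genes, are uncertain where reads fit both copies.

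Promoter windows were searched for the letters of the ISRE and the GAS, without any measure of binding or activity. Windows of 250 bases before to 50 bases after the start site were taken from RefSeq on GRCm38.p6 and were given for 33 of the 43 ISGs. The ISRE core was searched as GAAANNGAAA on both strands, and 17 of the 33 ISGs (51.5%) held it, against 3.99% of 27025 genes (3.44% of 32851 windows). The GAS letters TTCNNNGAA, which read the same on both strands, were held by 7 of the 33 ISGs (21.2%), against 9.55% of all genes. A match to either motif can overlap a match to the other. The stretches below are shown because they carry the ISRE core of genes whose levels are followed in the results, the first 6 from the IFIT, OAS, ISG15 and viperin families and the last from a guanylate-binding protein. Each is written 5′ to 3′ on the gene's strand, with the ISRE core or its reverse complement in capitals and up to 20 bases around it. In the Oas1a and Gbp7 stretches, capitals also mark the GAS letters.
Ifit1, chr19:34640765-34640833, plus strand: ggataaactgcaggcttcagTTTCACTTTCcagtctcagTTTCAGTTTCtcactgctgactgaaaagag
Ifit3, chr19:34583353-34583436, plus strand: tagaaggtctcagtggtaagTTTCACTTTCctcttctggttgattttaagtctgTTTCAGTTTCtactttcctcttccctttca
Isg15, chr4:156200855-156200916, minus strand: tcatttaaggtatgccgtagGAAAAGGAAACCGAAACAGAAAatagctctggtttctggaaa
Oas1a, chr5:120907526-120907643, minus strand: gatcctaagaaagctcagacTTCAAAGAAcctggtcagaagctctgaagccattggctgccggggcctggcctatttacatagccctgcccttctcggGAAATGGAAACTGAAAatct
Oas3, chr5:120777705-120777754, minus strand: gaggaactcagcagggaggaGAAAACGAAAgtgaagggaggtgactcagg
Rsad2, chr12:26456543-26456592, minus strand: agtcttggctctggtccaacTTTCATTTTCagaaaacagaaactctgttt
Gbp7, chr3:142530210-142530312, plus strand: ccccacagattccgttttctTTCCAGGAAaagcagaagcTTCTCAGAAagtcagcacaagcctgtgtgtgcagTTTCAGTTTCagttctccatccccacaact

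Isg15 held 3 overlapping matches to the ISRE core, 57 to 78 bases before its start site, and the Oas1a matches ended 5 bases before it. When ABCs (Aged) were set against FO B (Aged), the 16 tested ISGs with the ISRE core in their window had a median log2 fold change of -0.28, and it was -0.47 over the 15 tested ISGs whose window lacked it. In FO B (Aged) against FO B (Young), the medians were -0.36 and -0.38.

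ABCs held less RNA of many ISGs than FO B cells of the same age, with 4 of the 5 OAS genes, Usp18, Irf7 and Rtp4 among those that fell and Mx1, Lgals3bp and Zbp1 as those that rose. To ask how ABCs differ from FO B cells of the same age, log2(FPKM + 1) values were fitted with limma over all 10375 genes and called at a Benjamini-Hochberg FDR under 0.05. In ABCs (Aged) against FO B (Aged), 15 of the 41 ISGs fell (36.6%), whereas 16.7% of all genes did, and 3 rose (7.32%), whereas 18.7% of all genes did. The median log2 fold change of the ISGs was -0.45, beside -0.02 over all genes, and 35 of 41 were below 0. The 3 ABC libraries lay below all 3 FO B libraries for 22 ISGs (53.7%, against 26.6% of all genes) and above them for 3 (7.32%, against 25.7%). Of the called genes, Cmpk2, Irf7, Oas2, Usp18, Xaf1 and Lgals3bp no longer passed when genes of low level were tested as well. The 15 decreases became 10 without FO B (Aged) replicate 1, where the decreases of all genes went from 1729 to 1029. Only Mx1 still rose without FO B (Aged) replicate 1 or 2 or ABCs (Aged) replicate 1. In these fits 1374, 1537 and 1561 of all genes rose, in place of 1937.

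Age within FO B cells was the second question. In FO B (Aged) against FO B (Young), 37 of the 41 ISGs had a log2 fold change below 0, with a median of -0.40 beside 0.00 over all genes. The limma test called 2 of them lower (4.88%, against 0.0964% of all genes), Mx1 and Lgals3bp, and 0 higher (against 0.28% of all genes). At an unadjusted limma p under 0.05, 24 ISGs were lower and 3 were higher, whereas 5.85% and 7.06% of all genes were. The aged libraries lay below all young libraries for 21 ISGs (51.2%, against 8.86% of all genes) and above them for 2 (4.88%, against 9.66%). For such genes the exact two-sided permutation test gave a p of 0.1, the smallest that 3 against 3 libraries allow. The number of ISGs called lower depended on single libraries. Leaving out FO B (Aged) replicate 3 gave 7 calls, namely Rtp4, Ifi27l2a, Usp18, Ifit3, Oasl1, Mx1 and Lgals3bp. In that fit 12 of all 10375 genes were called lower, beside 10 with all libraries. With FO B (Young) replicate 1 or 2 or FO B (Aged) replicate 1 left out, 0 were called. Of all genes, only 1, 3 and 3 were called lower in these fits. With FO B (Young) replicate 3 or FO B (Aged) replicate 2 left out, Mx1 was the 1 ISG called, and 9 and 8 of all genes were called lower.

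ABCs (Aged) against FO B (Young) set age and cell type together and shared its libraries with both comparisons above. Here 29 of the 41 ISGs fell (70.7%, against 19.3% of all genes), and 1 rose, Gbp7 (2.44%, against 20.9%). The median log2 fold change was -0.71, beside -0.02 over all genes. The libraries did not overlap for 32 ISGs that were lower (78.0%, against 27.9% of all genes) and 1 that was higher (2.44%, against 27.1%). Gbp7 rose by 0.90 on the log2 scale (SE 0.29, limma FDR 0.044), a 2.13-fold difference of the means. That call was lost without any 1 of the 3 young libraries or without ABCs (Aged) replicate 1 or 2, whereas without ABCs (Aged) replicate 3 Gbp2, Gbp3 and Gbp7 all rose.

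**Figure D1:**
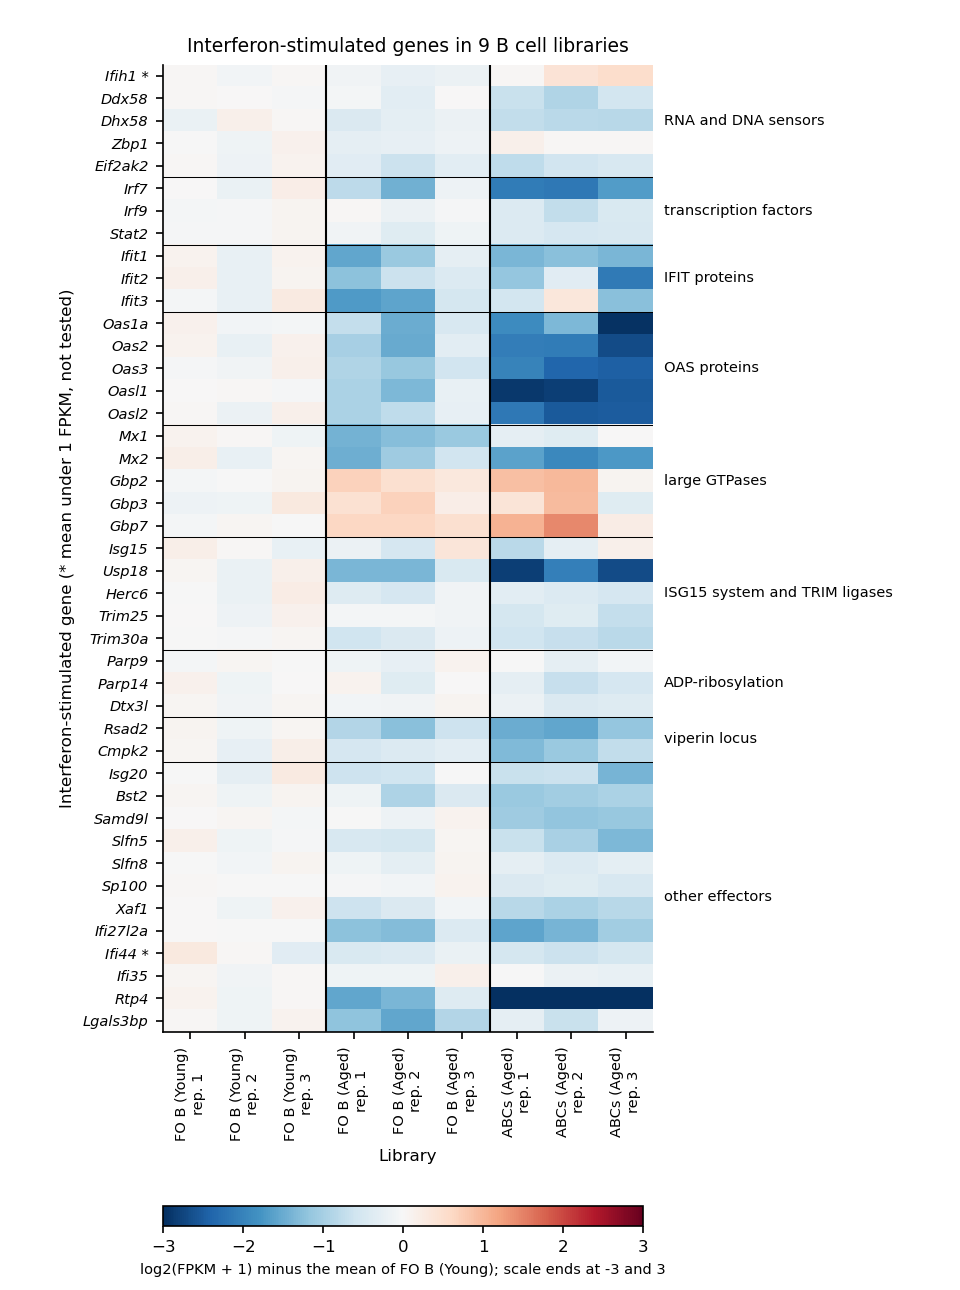
Levels of the 43 ISGs (vertical axis, grouped by role) in the 9 libraries (horizontal axis), as log2(FPKM + 1) minus the mean of the 3 FO B (Young) libraries, blue for lower and red for higher. Blue deepens in the ABC columns for the OAS genes, Usp18, Irf7 and Rtp4, the last of which passes the end of the scale at -3, while Gbp2, Gbp3 and Gbp7 are red in most aged libraries.

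Of the 3 transcription factors, Irf7 and Irf9 fell in ABCs (Aged) against FO B (Aged) and Stat2 did not pass the test. Irf7 amplifies the type I response, since it is both an ISG and a driver of interferon genes. Its level was 52.2, 45.0 and 60.2 FPKM in FO B (Young), 29.7, 18.4 and 47.0 FPKM in FO B (Aged), and 11.4, 11.0 and 15.8 FPKM in ABCs (Aged). All ABC libraries were below all FO B libraries, whereas the third aged FO B library overlapped the young ones. Against FO B (Aged), Irf7 fell by 1.17 on the log2 scale in ABCs (SE 0.32, limma FDR 0.0295), a 2.49-fold difference of the means. This call was lost without FO B (Aged) replicate 1 or 3 or ABCs (Aged) replicate 1 or 2, where the limma FDR was 0.0602 to 0.0877. Between FO B groups the log2 fold change was -0.80 (SE 0.30, limma FDR 0.327).

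Irf9 is the DNA-binding subunit of the complex that reads the ISRE. It stood at 73.5, 74.6 and 80.0 FPKM in FO B (Young), 78.3, 67.0 and 74.5 FPKM in FO B (Aged) and 57.3, 45.5 and 55.0 FPKM in ABCs (Aged). The FO B groups overlapped, with a log2 fold change of -0.06, and the ABC libraries were below both. Irf9 fell by 0.47 on the log2 scale in ABCs against FO B (Aged) (SE 0.11, limma FDR 0.0138), and the limma FDR was 0.0568 or 0.0533 when the first or the third FO B (Aged) library was left out. Stat2, its partner, was at 36.9, 36.3 and 39.5 FPKM in FO B (Young), 34.8, 28.9 and 34.4 FPKM in FO B (Aged), and 28.0, 26.3 and 26.7 FPKM in ABCs. The 3 groups did not overlap for Stat2, but the steps were small, with log2 fold changes of -0.20 between FO B groups (SE 0.08, limma FDR 0.379) and -0.26 between ABCs and FO B (Aged) (SE 0.09, limma FDR 0.0619). Leaving out FO B (Aged) replicate 2, the second of these passed the test (-0.34, limma FDR 0.0243).

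The OAS family is named for proteins that sense double-stranded RNA and make 2′-5′ oligoadenylate to activate RNase L. In ABCs (Aged) against FO B (Aged), Oas2, Oas3, Oasl1 and Oasl2 fell, 0 of the 5 OAS genes rose, Oas1a did not pass the test, and the median log2 fold change was -1.41. Of all genes, 16.7% fell and 18.7% rose there. Oas3 was at 4.36, 4.09 and 5.07 FPKM in FO B (Young), 1.93, 1.501 and 2.72 FPKM in FO B (Aged), and 0.378, 0.0489 and 0 FPKM in ABCs (Aged). In reads, these ABC values stand for 14, 2 and 0 reads of the gene, whereas the FO B (Aged) libraries held 67 to 109 and the FO B (Young) libraries 162 to 202. The mean of Oas3 was 14.4-fold lower in ABCs than in FO B (Aged), or -1.41 as a log2 fold change (SE 0.21, limma FDR 0.00286), since the added 1 shrinks differences of low genes.

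Oas2 was at 6.06, 4.67 and 6.19 FPKM in FO B (Young), 2.32, 1.33 and 4.30 FPKM in FO B (Aged) and 0.566, 0.543 and 0.0331 FPKM in ABCs, the last of these a single read. The 3 groups did not overlap. Oas2 fell by 1.35 on the log2 scale in ABCs against FO B (Aged) (SE 0.33, limma FDR 0.0194). With FO B (Aged) replicate 1 left out, Oas2 missed the threshold (limma FDR 0.0597). Oas1a, whose promoter stretch is printed above, was at 13.6, 11.7 and 11.9 FPKM in FO B (Young), 7.11, 3.80 and 8.65 FPKM in FO B (Aged), and 2.62, 4.27 and 0.721 FPKM in ABCs. ABC replicate 2 overlapped the aged FO B libraries, and Oas1a did not pass the test (log2 fold change -1.17, SE 0.44, limma FDR 0.0817), although it did without that library (-1.53, limma FDR 0.0413). Against FO B (Young), Oas1a fell by 2.06 on the log2 scale in ABCs (SE 0.38, limma FDR 0.00534).

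The OAS-like genes Oasl1 and Oasl2 fell as well. Oasl1, which restrains translation of Irf7 mRNA in mice, was at 19.3, 19.5 and 18.5 FPKM in FO B (Young), 9.38, 6.92 and 16.1 FPKM in FO B (Aged), and 1.72, 1.84 and 2.53 FPKM in ABCs. Its ABC libraries held 27 to 40 reads each, against 131 to 274 in FO B (Aged). Oasl1 fell by 1.90 on the log2 scale in ABCs against FO B (Aged) (SE 0.28, limma FDR 0.00302), a 5.32-fold difference of the means. Oasl2 was at 9.22, 7.89 and 10.1 FPKM in FO B (Young), 4.20, 4.94 and 7.49 FPKM in FO B (Aged) and 1.25, 0.753 and 0.785 FPKM in ABCs. It fell by 1.74 (SE 0.21, limma FDR 0.00144), a 5.97-fold difference of the means, with 19 to 30 reads in each ABC library, and its 3 groups did not overlap. All 5 OAS genes were lower in every FO B (Aged) library than in every FO B (Young) library, as were 8.86% of all genes. Their log2 fold changes were -0.94 to -0.65. Of the 5, 0 passed the limma test there, which called 0.0964% of all genes lower. All 5 were lower at an unadjusted limma p under 0.05, as were 5.85% of all genes.

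Rtp4, a transmembrane protein of the Golgi and endoplasmic reticulum whose gene is induced by type I interferon, had the most negative log2 fold change of the 41 ISGs in ABCs. It was at 45.0, 38.5 and 43.0 FPKM in FO B (Young), 13.7, 15.6 and 32.05 FPKM in FO B (Aged), and 1.70, 1.86 and 0.711 FPKM in ABCs. In reads, the ABC libraries held 19, 23 and 8, whereas FO B (Aged) libraries held 152 to 388 and FO B (Young) libraries 460 to 545. Rtp4 fell by 3.08 on the log2 scale in ABCs against FO B (Aged) (SE 0.34, limma FDR 0.00102), a 14.4-fold difference of the means, and by 4.19 against FO B (Young) (SE 0.20, limma FDR 2.75e-05), a 29.6-fold difference. With age in FO B cells, its log2 fold change was -1.10 (SE 0.28, limma FDR 0.186). It passed the test once FO B (Aged) replicate 3 was left out (-1.46, limma FDR 0.014).

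The ISG15 system conjugates a ubiquitin-like protein to other proteins. Usp18, which removes Isg15 and also silences the receptor chain Ifnar2, was at 24.8, 20.7 and 26.6 FPKM in FO B (Young), 8.67, 8.56 and 17.1 FPKM in FO B (Aged), and 2.50, 5.02 and 2.87 FPKM in ABCs. The 3 groups were separate. Usp18 fell by 1.45 on the log2 scale in ABCs against FO B (Aged) (SE 0.31, limma FDR 0.0123), a 3.30-fold difference of the means. Usp18 had a log2 fold change of -1.07 between FO B groups (SE 0.25, limma FDR 0.166), which became -1.37 once FO B (Aged) replicate 3 was left out (limma FDR 0.0272).

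Isg15 itself, whose window held the ISRE core 3 times, was at 7.26, 6.50 and 5.22 FPKM in FO B (Young), 5.44, 4.10 and 8.29 FPKM in FO B (Aged) and 3.14, 5.08 and 7.13 FPKM in ABCs. All 3 groups overlapped, and only 14 to 40 reads lay behind each value. The log2 fold changes were -0.19 in ABCs against FO B (Aged) (SE 0.30, limma FDR 0.654) and -0.11 between FO B groups (SE 0.22, limma FDR 0.878). Both turned above 0 when 1 library was left out, to 0.06 without ABCs (Aged) replicate 1 and to 0.09 without FO B (Aged) replicate 2. Of the ubiquitin ligases in this group, Trim25, an E3 ligase acting with the sensor Ddx58, fell in ABCs with a log2 fold change of -0.46 (limma FDR 0.0137, or 0.0525 with FO B (Aged) replicate 1 left out). Herc6 (-0.07) and Trim30a (-0.31) did not pass the test in that comparison.

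The IFIT genes, whose products bind foreign RNA and block its translation, did not pass the test in ABCs against aged FO B cells. Ifit1 was at 5.28, 3.98 and 5.31 FPKM in FO B (Young), 0.962, 1.71 and 3.80 FPKM in FO B (Aged), and 1.25, 1.45 and 1.24 FPKM in ABCs. Ifit2 was at 10.3, 7.66 and 9.83 FPKM in FO B (Young), 3.32, 5.54 and 6.67 FPKM in FO B (Aged), and 3.55, 7.10 and 1.32 FPKM in ABCs. Ifit3 was at 16.4, 14.5 and 20.5 FPKM in FO B (Young), 4.54, 4.98 and 11.5 FPKM in FO B (Aged), and 11.2, 21.6 and 6.56 FPKM in ABCs. All 3 genes were lower in every aged than in every young FO B library (against 8.86% of all genes), whereas ABCs overlapped FO B (Aged) for each. In ABCs against FO B (Aged), 0 of the 3 passed the limma test and 0 had an unadjusted p under 0.05. At that p, 22.9% of all genes were lower and 23.5% higher. The log2 fold changes of the 3 genes were -0.35, -0.45 and 0.78. Between FO B groups they were -0.99, -0.76 and -1.27, with limma FDRs of 0.256, 0.226 and 0.173, and Ifit3 passed the test without FO B (Aged) replicate 3 (-1.64, limma FDR 0.0323). Against FO B (Young), Ifit1 fell in ABCs by 1.33 on the log2 scale (SE 0.14, limma FDR 0.000565).

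Among the large GTPases, Mx1 was the 1 gene called in both comparisons. Mx1, which traps viral ribonucleoproteins and which C57BL/6 mice carry as a defective allele, was at 5.72, 5.45 and 4.71 FPKM in FO B (Young), 1.35, 1.59 and 1.91 FPKM in FO B (Aged), and 4.19, 3.86 and 5.35 FPKM in ABCs. The aged FO B libraries were below all others, and the ABC libraries overlapped the young ones. Mx1 fell by 1.27 on the log2 scale in FO B (Aged) against FO B (Young) (SE 0.13, limma FDR 0.0124) and rose by 1.06 in ABCs against FO B (Aged) (SE 0.15, limma FDR 0.00274). The age call was lost without FO B (Young) replicate 1 (limma FDR 0.0998) or 2 (0.0787) or without FO B (Aged) replicate 1 (0.0520). Its neighbor Mx2 was at 2.93 to 4.12 FPKM in FO B (Young), 0.668 to 2.09 FPKM in FO B (Aged) and 0.199 to 0.496 FPKM in ABCs. These ranges did not overlap, but Mx2 passed the test in neither comparison with FO B (Aged) (limma FDR 0.162 with age and 0.056 in ABCs). It passed in ABCs against FO B (Aged) with a pseudocount of 0.1 (limma FDR 0.0418), quantile normalization (0.0333) or all 9 libraries in one fit (0.0295), and without FO B (Aged) replicate 1 (0.0290).

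The guanylate-binding proteins Gbp2, Gbp3 and Gbp7, which respond to interferon-gamma as well as to type I interferon and attack the vacuoles of pathogens, are singled out here after their values were seen. Gbp7 was at 5.90, 6.53 and 6.16 FPKM in FO B (Young), 9.99, 10.1 and 9.06 FPKM in FO B (Aged), and 13.9, 18.4 and 7.34 FPKM in ABCs. Every aged FO B library was above every young one, with a log2 fold change of 0.57 (SE 0.09, limma FDR 0.0754). Gbp2 was at 8.77, 9.12 and 9.88 FPKM in FO B (Young), 15.6, 13.2 and 11.8 FPKM in FO B (Aged), and 18.2, 19.1 and 9.80 FPKM in ABCs, again without overlap between the FO B groups. Gbp3 ranged from 22.8 to 31.9 FPKM in FO B (Young), 29.4 to 42.0 FPKM in FO B (Aged) and 19.7 to 50.5 FPKM in ABCs. ABCs (Aged) replicate 3 held the lowest ABC value of all 3 genes. Without it, Gbp2 (0.44, limma FDR 0.0424) and Gbp7 (0.67, limma FDR 0.0138) rose in ABCs against FO B (Aged), whereas with it neither passed the test.

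**Figure D2:**
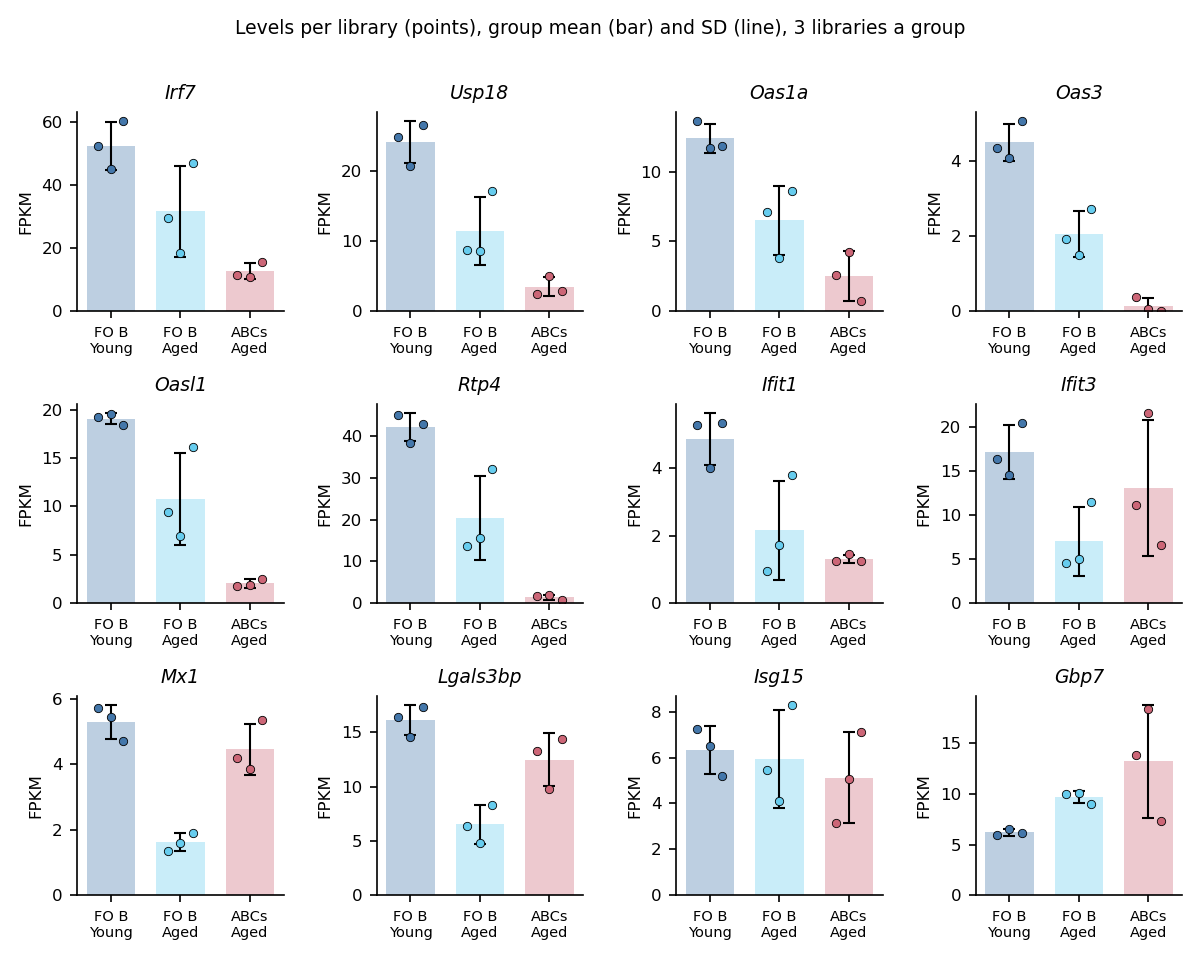
FPKM per library of 12 ISGs in FO B (Young), FO B (Aged) and ABCs (Aged), with bars for the group mean and lines for the SD of 3 libraries. The ABC points of Irf7, Usp18, Oas3, Oasl1 and Rtp4 lie below all FO B points, the FO B (Aged) points of Mx1 and Lgals3bp lie below both other groups, and the Gbp7 points of both aged groups lie above the young ones.

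Of the 4 RNA and DNA sensors tested, Ddx58 and Dhx58 fell in ABCs against FO B (Aged) and Zbp1 rose, whereas 16.7% of all genes fell and 18.7% rose. Ddx58 (RIG-I), a sensor of viral RNA, was at 28.9, 28.6 and 27.4 FPKM in FO B (Young), 27.3, 22.7 and 28.4 FPKM in FO B (Aged), and 17.4, 14.7 and 18.9 FPKM in ABCs. FO B groups overlapped and ABCs were below both, and Ddx58 fell by 0.59 on the log2 scale in ABCs against FO B (Aged) (SE 0.12, limma FDR 0.0116). The limma FDR was 0.0504 without FO B (Aged) replicate 1. Zbp1, a sensor of Z-form nucleic acid that can trigger necroptosis, was at 45.2, 41.3 and 49.4 FPKM in FO B (Young), 37.5, 37.8 and 40.8 FPKM in FO B (Aged), and 50.4, 46.4 and 46.6 FPKM in ABCs. It rose by 0.30 in ABCs against FO B (Aged) (SE 0.07, limma FDR 0.0159), a call that was lost without FO B (Aged) replicate 1 (limma FDR 0.0613), FO B (Aged) replicate 2 (0.0531) or ABCs (Aged) replicate 1 (0.0544). Dhx58, which shapes signals of the other RNA sensors, fell by 0.49 in ABCs (limma FDR 0.00885), and the translation-blocking kinase Eif2ak2 was at -0.16 (limma FDR 0.414). Ifih1 (MDA5), not tested, was listed at 0.792 to 0.937 FPKM in FO B (Young), 0.587 to 0.741 FPKM in FO B (Aged) and 0.944 to 1.73 FPKM in ABCs. The 3 genes of ADP-ribosylation, Parp9, Parp14 and Dtx3l, had log2 fold changes of -0.09 to -0.04 between FO B groups and -0.40 to -0.03 between ABCs and FO B (Aged), and 0 of the 3 passed the limma test in either, with 0 and 1 at an unadjusted p under 0.05. Of all genes, 5.85% and 22.9% were lower at that p.

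Rsad2 (viperin), which makes a chain-terminating nucleotide, and its neighbor Cmpk2, a nucleotide kinase, lie side by side in the genome. Rsad2 was at 3.08, 2.54 and 3.04 FPKM in FO B (Young), 1.0996, 0.622 and 1.54 FPKM in FO B (Aged), and 0.375, 0.308 and 0.744 FPKM in ABCs. The third ABC library overlapped FO B (Aged), and the log2 fold changes were -0.92 between FO B groups (SE 0.18, limma FDR 0.133) and -0.49 between ABCs and FO B (Aged) (SE 0.21, limma FDR 0.118). Cmpk2 was at 17.7, 14.2 and 19.2 FPKM in FO B (Young), 11.5, 12.4 and 13.4 FPKM in FO B (Aged), and 6.17, 7.33 and 9.66 FPKM in ABCs. Its 3 groups did not overlap, and Cmpk2 fell by 0.64 on the log2 scale in ABCs against FO B (Aged) (SE 0.16, limma FDR 0.02). That call was lost without any 1 of the FO B (Aged) libraries or without ABCs (Aged) replicate 1 or 2, with limma FDRs from just above 0.05 to 0.0751.

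Of the other effectors, 4 of the 11 tested fell in ABCs against FO B (Aged) and 1 rose, whereas 16.7% and 18.7% of all genes did. Samd9l, a restriction factor of poxviruses, was at 90.1, 92.7 and 86.2 FPKM in FO B (Young), 89.3, 81.0 and 96.5 FPKM in FO B (Aged), and 42.1, 38.9 and 39.9 FPKM in ABCs. The FO B groups overlapped, with a log2 fold change of -0.01, and all ABC libraries were lower. Samd9l fell by 1.12 on the log2 scale (SE 0.08, limma FDR 0.000198), a 2.21-fold difference of the means. Lgals3bp, a secreted glycoprotein that binds galectins, was at 16.4, 14.6 and 17.4 FPKM in FO B (Young), 6.41, 4.80 and 8.33 FPKM in FO B (Aged), and 13.3, 9.75 and 14.4 FPKM in ABCs. The aged FO B libraries were the lowest and did not overlap the other groups. Lgals3bp fell by 1.21 with age in FO B cells (SE 0.17, limma FDR 0.0489) and rose by 0.85 in ABCs against FO B (Aged) (SE 0.21, limma FDR 0.021). The first call was lost without any 1 library but FO B (Aged) replicate 3, with limma FDRs of 0.0557 to 0.24. The second was lost without FO B (Aged) replicate 1 or 2 or ABCs (Aged) replicate 1 or 3, with limma FDRs from just above 0.05 to 0.0675.

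Ifi27l2a, a small hydrophobic protein, was the most abundant of the ISGs by FPKM. It was at 1093, 1069 and 1065 FPKM in FO B (Young), 460.0, 433 and 808 FPKM in FO B (Aged), and 360.0, 411 and 519 FPKM in ABCs. Both aged groups were below all young libraries and overlapped each other. The log2 fold change with age was -0.98 (SE 0.22, limma FDR 0.157), and with FO B (Aged) replicate 3 left out it was -1.27 (limma FDR 0.00138). Bst2 (tetherin), which holds budding virions at the membrane, was at 58.4, 51.9 and 59.4 FPKM in FO B (Young), 51.2, 29.1 and 41.7 FPKM in FO B (Aged), and 25.6, 26.7 and 28.7 FPKM in ABCs. No 2 groups of Bst2 overlapped, but it passed neither test against FO B (Aged), at -0.54 in ABCs (SE 0.19, limma FDR 0.0672) and -0.50 between FO B groups (limma FDR 0.316). Without FO B (Aged) replicate 2, Bst2 passed in ABCs (-0.76, limma FDR 0.00876). Xaf1, which antagonizes an inhibitor of cell death, fell in ABCs by 0.49 on the log2 scale (limma FDR 0.039), a call lost without FO B (Aged) replicate 2 or 3 or any 1 ABC library (limma FDR 0.0606 to 0.0984). Sp100, a component of nuclear bodies, fell by 0.42 (limma FDR 0.00421), whereas Isg20, Slfn5, Slfn8 and Ifi35, at -0.69 to -0.10, did not pass. Ifi44, not tested, was listed at 0.294 to 1.0005 FPKM in FO B (Young), 0.182 to 0.417 FPKM in FO B (Aged) and 0.0409 to 0.135 FPKM in ABCs.

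**Figure D3:**
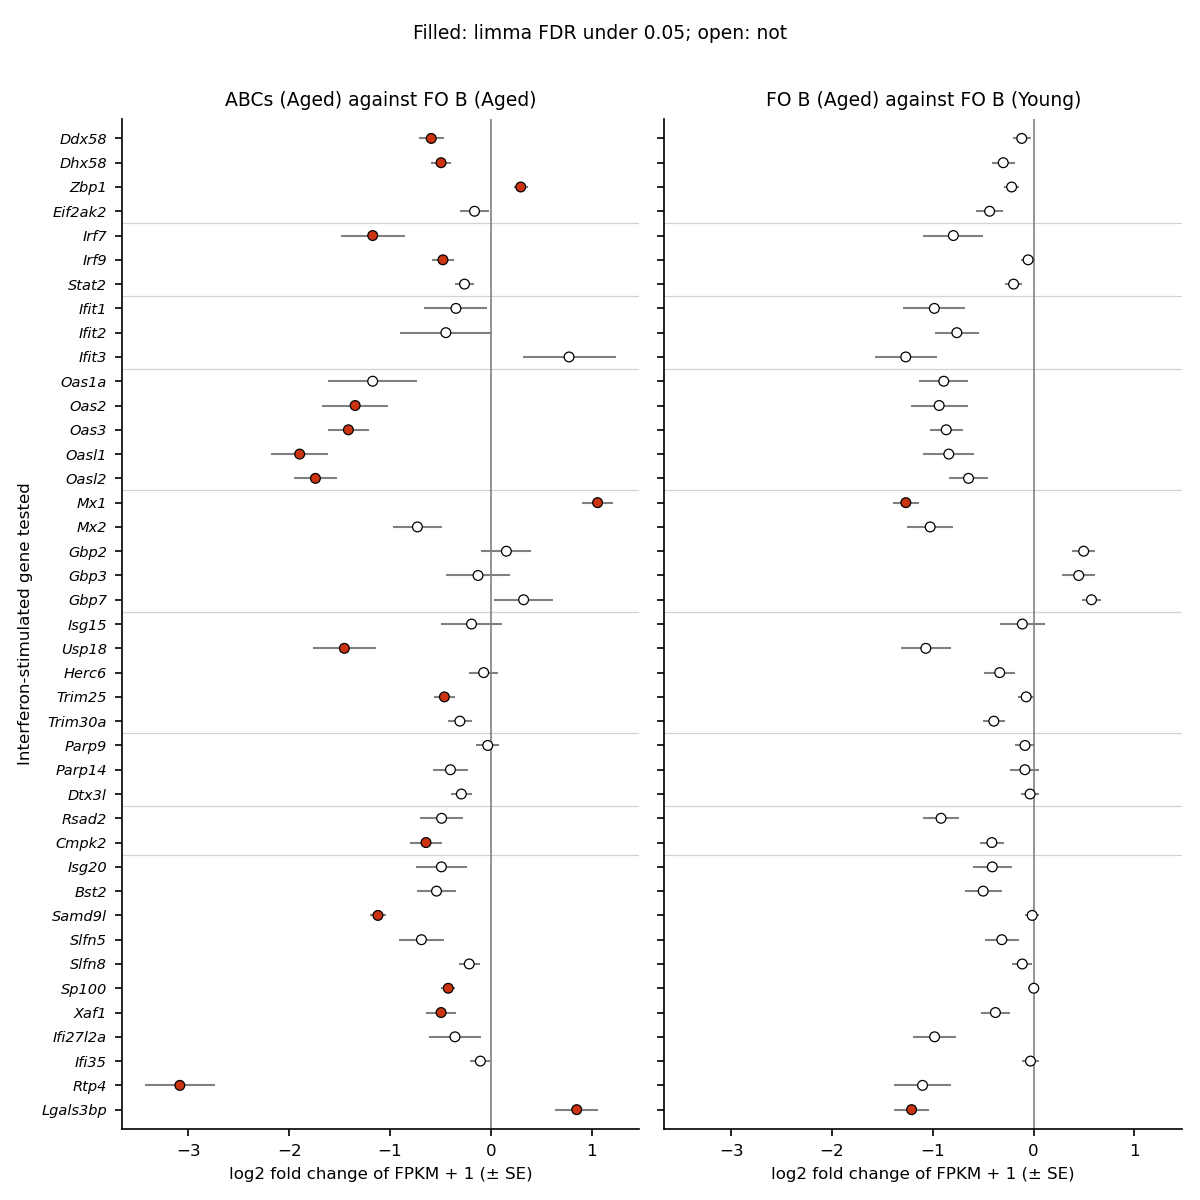
Log2 fold change of FPKM + 1 (horizontal axis, ± SE from limma) of the 41 ISGs tested (vertical axis, by role) in ABCs (Aged) against FO B (Aged) and in FO B (Aged) against FO B (Young), filled where the limma FDR was under 0.05. On the left Rtp4 reaches -3.08 and the OAS genes lie between -1.90 and -1.17, and on the right most points are open and below 0, with the 3 Gbp genes between 0.45 and 0.57.

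FO B (Aged) replicate 3 stood apart from the other aged FO B libraries in these genes. It was the highest of its group for 33 of the 41 ISGs (80.5%), whereas it was the highest for 31.4% of all genes tested. The young group had an uneven order as well. FO B (Young) replicate 3 was the highest of its group for 23 ISGs (56.1%, against 34.9% of all genes), and replicate 2 was the lowest for 29. Set against the mean of FO B (Young), the median of the ISGs was -0.49 and -0.51 on the log2 scale in the first and second aged FO B libraries. It was -0.15 in the third. Over all genes, the same medians were within 0.01 of 0 in the 6 FO B libraries. In the young libraries the medians were 0.03, -0.12 and 0.07, and in the ABC libraries -0.67, -0.70 and -0.81. The third aged FO B library was also the one with the neutrophil marker sum of 24.6 FPKM, against 1.18 to 3.81 FPKM in the others, and its part in the ISG values was not tested.

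**Figure D4:**
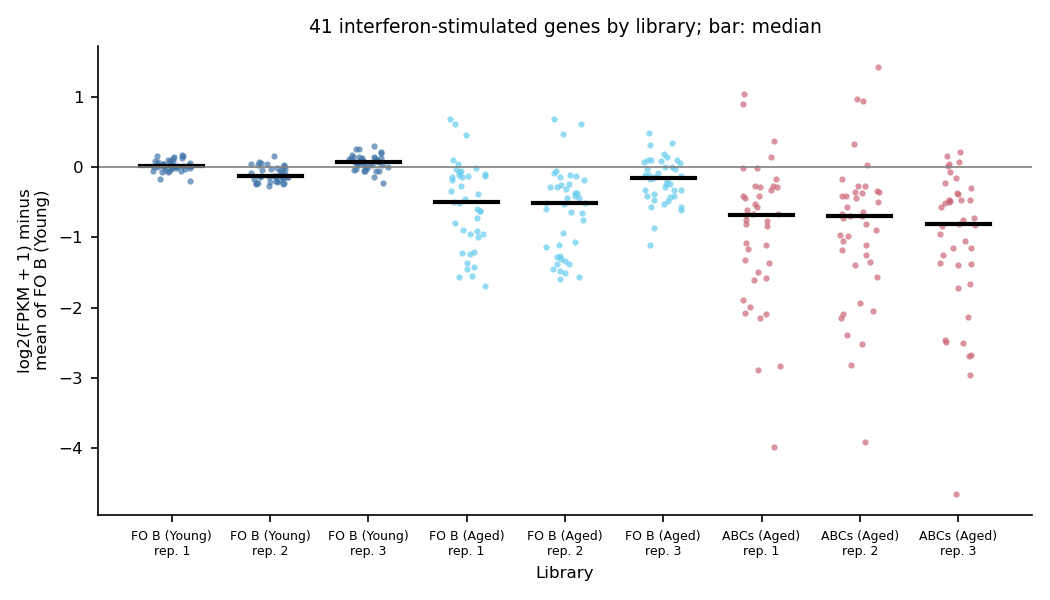
Each point is 1 of the 41 ISGs tested, as log2(FPKM + 1) minus the mean of FO B (Young) (vertical axis), by library (horizontal axis), and bars are medians. The bar of FO B (Aged) replicate 3 is at -0.15, between the young libraries and the other aged FO B libraries at -0.49 and -0.51, and the ABC bars are at -0.67 to -0.81.

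Ligands, receptors and regulators of the pathway were read from a list of their own. Of the 21 interferon ligand genes, 0 reached a mean of 1 FPKM. The type I ligands were listed at 0 in most libraries and at most at 0.483 FPKM, whereas Ifng was at 2.08, 2.77 and 2.31 FPKM in ABCs (17, 25 and 19 reads) and at most 0.407 FPKM (4 reads) in the FO B libraries. Of the 27 receptors, kinases and regulators, all tested, 9 rose and 7 fell in ABCs against FO B (Aged), whereas 18.7% and 16.7% of all genes did, with a median log2 fold change of -0.04. The 7 decreases became 3 to 5 when any 1 library was left out, while those of all genes became 1029 to 1631, in place of 1729. In FO B (Aged) against FO B (Young), 1 rose, 0 fell by the limma test, and the median was 0.03, while 8 were higher and 3 lower at an unadjusted limma p under 0.05, as were 7.06% and 5.85% of all genes.

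The receptor chain Ifnar1 was at 19.4, 18.4 and 17.1 FPKM in FO B (Young), 17.8, 18.3 and 17.5 FPKM in FO B (Aged), and 13.9, 13.7 and 13.3 FPKM in ABCs. It fell by 0.36 on the log2 scale in ABCs against FO B (Aged) (SE 0.07, limma FDR 0.00942) and differed by -0.03 between FO B groups. Ifnar2 was at -0.32 in the first comparison (limma FDR 0.147) and at 0.24 in the second (limma FDR 0.234). Ifngr1 fell by 0.35 in ABCs against FO B (Aged) (limma FDR 0.0342), and Ifngr2 was at -0.22 (limma FDR 0.115). The Ifngr1 call was lost without any 1 library but FO B (Aged) replicate 3 (limma FDR 0.0502 to 0.113). It was also lost with genes of low level tested as well (0.0893).

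Irf1, an early target gene of interferon-gamma, was at 144, 145 and 154 FPKM in FO B (Young), 230.3, 189 and 202 FPKM in FO B (Aged) and 187, 167 and 184 FPKM in ABCs. It was above the young range in every aged library, at 0.48 between FO B groups (SE 0.08, limma FDR 0.0677). The largest called changes in ABCs against FO B (Aged) were Tlr7, an endosomal sensor of single-stranded RNA (1.64, SE 0.23, limma FDR 0.00245), Jak2, a kinase of the interferon-gamma receptor (-1.52, SE 0.27, limma FDR 0.00562), and Tlr9, an endosomal sensor of DNA (1.19, SE 0.13, limma FDR 0.00103). Socs3, a feedback inhibitor of cytokine receptors, was at 3.49, 2.40 and 3.56 FPKM in FO B (Young), 16.6, 11.5 and 14.8 FPKM in FO B (Aged), and 19.3, 10.1 and 18.7 FPKM in ABCs. It rose by 1.88 with age in FO B cells (SE 0.17, limma FDR 0.00897). The call was lost with FO B (Young) replicate 1 left out (limma FDR 0.056) or with genes of low level tested as well (0.0839).

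Cxcl10, Iigp1 and Gbp8 were the largest called changes among genes linked to interferon-gamma, in which Irf1, Nlrc5 and Socs1 of the regulators also count. Of the 17 tested of 20, 8 rose and 2 fell in ABCs against FO B (Aged), beside 18.7% and 16.7% of all genes, with a median log2 fold change of 0.35. Cxcl10, a chemokine for Cxcr3-bearing cells, was at 0.888, 0.770 and 0.766 FPKM in FO B (Young), 0.693, 0.342 and 0.634 FPKM in FO B (Aged), and 38.6, 34.6 and 102 FPKM in ABCs. It rose by 5.08 on the log2 scale in ABCs against FO B (Aged) (SE 0.39, limma FDR 0.000273), where the aged FO B libraries held 3 to 5 reads. Iigp1, an immunity-related GTPase, was at 0.206, 0.292 and 0.124 FPKM in FO B (Young), 1.44, 1.30 and 0.247 FPKM in FO B (Aged), and 9.68, 11.7 and 17.5 FPKM in ABCs, and rose by 2.83 (SE 0.31, limma FDR 0.000993). Gbp8 rose by 2.78 (SE 0.36, limma FDR 0.00177). Between FO B groups, 0 of the 17 passed the limma test, 14 were above 0, and the median was 0.30. At an unadjusted p under 0.05, 8 were higher and 0 lower, against 7.06% and 5.85% of all genes.

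Of 33 further ISGs tested out of 38 found, 7 rose and 9 fell in ABCs against FO B (Aged), where 18.7% and 16.7% of all genes were called, and the median was -0.26. The 9 decreases became 5 without FO B (Aged) replicate 1 or 3 and 6 without ABCs (Aged) replicate 1. Those of all genes became 1029, 1097 and 1290 in these fits, in place of 1729. In the age comparison 0 passed the limma test, 0 were higher and 8 lower at an unadjusted p under 0.05 (7.06% and 5.85% of all genes), and the median was -0.14. The largest called changes in ABCs were Trim34a, a TRIM protein that restricts retroviruses (-1.82, SE 0.18, limma FDR 0.000581), Phf11a, a PHD finger gene (1.44, SE 0.21, limma FDR 0.00267), and Helz2, a helicase (-1.33, SE 0.10, limma FDR 0.000284). Trim34a was at 123 to 130.3 FPKM in FO B (Young), 110 to 133 FPKM in FO B (Aged) and 25.7 to 40.0 FPKM in ABCs, and Phf11a was at 12.6 to 14.3, 8.40 to 14.3 and 25.3 to 36.7 FPKM.

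**Figure D5:**
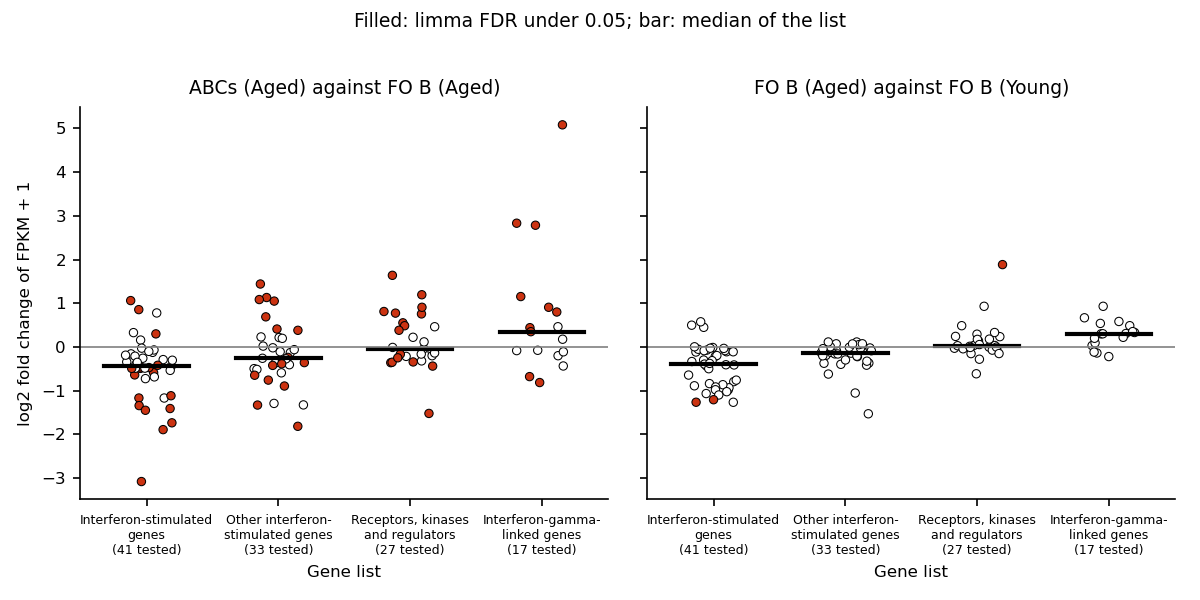
Log2 fold change of FPKM + 1 (vertical axis) of the genes tested in 4 lists (horizontal axis), in ABCs (Aged) against FO B (Aged) and in FO B (Aged) against FO B (Young), filled where the limma FDR was under 0.05, with bars for the medians. The medians of the ISGs are at -0.45 and -0.40, those of the genes linked to interferon-gamma at 0.35 and 0.30.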

How the data were processed

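Libraries were sequenced as single-end reads of 101 bases after cDNA amplification with a SMART-Seq HT kit, per the labels and the methods of the study. The authors deposited 1 FPKM value per gene symbol and library. The methods name TopHat, Bowtie2, SAMtools and Cufflinks with mm10, and the submitters' processing notes list TopHat2 2.1.1, Bowtie2 2.2.8, SAMtools 0.1.18 and Cuffdiff 2.2.1. The gene annotation, the strand setting and any scaling between libraries are not given in the sources used here.

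For each comparison the 6 libraries involved were modelled as log2(FPKM + 1) in limma 3.58.1 (R 4.3.3), by lmFit followed by eBayes using the intensity trend. Genes averaging 1 FPKM or more across the 9 libraries entered, and the Benjamini-Hochberg FDR ran over all 10375 of them. The fit was tested on simulated data with the spread of the FO B (Aged) libraries in both groups, which does not cover groups of unequal spread. For single genes, mean FPKM was compared by exact permutation, two-sided. Standard errors are those of limma. Reads were recovered where a gene's values were whole multiples of a common step, within 0.02 to 0.1 of a read, and cover counting error only. They were not used in a count model. Python 3.11.15, numpy 2.4.6, pandas 2.3.3 and matplotlib 3.10.9 did the rest.

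The 43 ISGs, their 9 groups by role, the 4 pathway lists (interferon ligands; receptors, kinases and regulators; further ISGs; genes linked to interferon-gamma) and the 8 marker lists were chosen with earlier results of these data known, and no list was tested. Values per library were given for ISGs with an FDR under 0.05, up to the 10 largest changes in each direction in ABCs (Aged) against FO B (Aged) and in FO B (Aged) against FO B (Young), and for Irf7, Irf9, Stat2, Isg15, Ifit1, Ifit2, Ifit3, Mx1, Oas1a, Rsad2, Usp18, Ifi27l2a and Bst2, and other ISGs by range or fold change. Of the pathway lists, 5 genes (Irf1, Ifnar1, Ifnar2, Ifngr1 and Ifngr2) and the 3 largest called changes per list were named. Alternatives were a pseudocount of 0.1, omission of the filter, a stricter filter at 5 FPKM, quantile normalization, upper quartile scaling, all 9 libraries in one fit, the replicate number as a block, an FDR under 0.01, and leaving out each library in turn. Results for some items are not reported here.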

Additional observations from a re-analysis of the deposited data

How the results depend on the processing

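The count of ISGs that fell in ABCs (Aged) against FO B (Aged) was 15 and became 7 at an FDR under 0.01. Under the other alternatives it was 10 to 22, and with 1 library left out it was 10 to 15. The count that rose was 3, became 1 at an FDR under 0.01, and was 1 to 4 with 1 library left out. With 1 library left out, 1029 to 1631 of all genes fell and 1374 to 1893 rose, in place of 1729 and 1937. In FO B (Aged) against FO B (Young), the 2 ISGs called lower became 1 with a pseudocount of 0.1, a filter at 5 FPKM or quantile normalization, 0 with no filter or at an FDR under 0.01, and 0 to 7 with 1 library left out. Of all genes, 1 to 12 were called lower there with 1 library left out, in place of 10. The samples share replicate numbers, but same-numbered libraries did not deviate together (correlations of -0.09 to 0.14), so that the numbers were not taken as pairs. With the replicate block, 0 were called lower between FO B groups, and Oas2 was lost in ABCs against FO B (Aged) (limma FDR 0.0517). In ABCs (Aged) against FO B (Young), the 1 ISG called higher became 0 at an FDR under 0.01, with no filter or with quantile normalization, 2 with all 9 libraries in one fit, and 0 to 3 with 1 library left out, whereas the 29 called lower stayed at 23 to 32 in all alternatives. Of all genes, 1625 to 2152 rose and 1293 to 1916 fell there with 1 library left out, in place of 2173 and 1999.

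The medians of the ISGs kept their sign in all alternatives run, at -0.49 to -0.33, -0.51 to -0.30 and -0.79 to -0.66. When 1 library was left out, 7 of the 41 ISGs turned in sign in ABCs against FO B (Aged) (Gbp2, Gbp3, Herc6, Ifit1, Ifit2, Isg15 and Parp9), 7 between FO B groups (Dtx3l, Ifi35, Irf9, Isg15, Parp14, Samd9l and Sp100) and 0 in ABCs against FO B (Young). None of these had passed the test in that comparison. With 1 library left out, the log2 fold changes in ABCs against FO B (Aged) were -0.64 to 0.0070 for Ifit1, -0.885 to 0.016 for Ifit2 and -0.42 to 0.063 for Isg15, the highest being without FO B (Aged) replicate 3, ABCs (Aged) replicate 3 and ABCs (Aged) replicate 1. Between FO B groups they were -0.10 to 0.0065 for Irf9, -0.34 to 0.088 for Isg15 and -0.075 to 0.0498 for Samd9l, the highest all without FO B (Aged) replicate 2. Among all genes, quantile normalization called 1713 higher and 2144 lower in ABCs against FO B (Aged), in place of 1937 and 1729.

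Low reads limit Ifi44, Ifit1, Isg15, Oas2, Oas3, Oasl2, Rsad2 and Rtp4, whose ABC libraries held at most 32 reads of each gene. With 3 libraries a group, outlying libraries could not be tested. The cause of the difference of FO B (Aged) replicate 3 was not tested.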
